A study of Mus musculus with 4 samples.

Results

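The genes described here are 40 enzymes and transporters of glycolysis, gluconeogenesis, fructose use and the tricarboxylic acid (TCA) cycle, taken by name from a fixed list and found by matching the gene identifiers of the count tables to mouse symbols. All 40 were found among 38124 gene identifiers, and 37 reached 20 counts in 2 or more libraries and were tested among 10694 genes. Pgk1, Ldhb and G6pc did not reach that limit. Expression was measured by strand-specific poly(A) RNA sequencing in intestinal epithelial cells of C57BL/6 male mice aged 71 weeks, in cells sorted as GFP-high (intestinal stem cells by their label) and as GFP-low (progenitors by theirs). The mice were on a high-fat diet (HFD) or on the normal diet used as its control, which gave 4 libraries, 1 for each diet in each GFP fraction. The control libraries are titled WT, a tag that the titles of the HFD libraries do not carry. Cells of 2 to 5 mice were pooled for a library, so no group had a replicate of its own. The labels and files used here do not give the promoter behind GFP, the make-up of the diets, or whether the mice of both fractions were the same.

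Glycolysis splits glucose into pyruvate in the cytosol and yields a little ATP, while gluconeogenesis runs the same route backwards with its own enzymes at the irreversible steps. Fructose enters through its own transporter and kinase and joins the triose part of glycolysis below the main control point. The TCA cycle oxidises acetyl-CoA in mitochondria and feeds the respiratory chain. In the small intestine, absorptive enterocytes carry sugars from the lumen to the blood, and crypt cells use glucose for growth.

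Total counts were 4677389 to 6207080 per library, and the 40 genes together took 0.434% to 0.743% of them. Levels are given as CPM, read counts scaled to library size by the TMM method. Where a library had 0 counts of a gene, up to 3 counts remain possible, or 0.483 to 0.641 CPM before scaling. Without molecular identifiers on the reads, every interval and limit here covers counting error only. Marker levels differed between the fractions: all 10 stem cell markers fixed for this check were higher in GFP-high (edgeR adjusted p under 0.05) and 11 of 12 enterocyte markers were lower. Of all tested genes 22.0% were higher and 25.6% were lower. Of these, Tnfrsf19 reached the count limit for testing in the GFP-high libraries alone, and Lct, Slc9a3 and Treh in the GFP-low libraries alone. Such markers had to differ, so their calls are a description only and the check rests on the others. All 7 goblet and 5 of 6 Paneth cell markers were also lower in GFP-high. No progenitor markers were checked, so the label of the GFP-low fraction was not tested. The summed enterocyte markers stood at 626 CPM in HFD GFP-high, 6392 CPM in HFD GFP-low, 390 CPM in control GFP-high and 2807 CPM in control GFP-low cells, and none was at 0 in every library. Summed goblet markers were 2965 CPM in HFD GFP-high, 17110 CPM in HFD GFP-low, 3305 CPM in control GFP-high and 38840 CPM in control GFP-low cells. Of 9 leukocyte markers none was tested, their sum was 3.45 to 8.38 CPM, and Ptprc and Cd4 were at 0 in every library. Mitochondrial ribosomal RNA made up 1.18% of counts in HFD GFP-high cells, against 2.54% to 2.82% in the other libraries.

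Under HFD, 10 of the 37 tested genes rose and none fell (edgeR quasi-likelihood test over both fractions, adjusted p under 0.05), against 6.46% of all tested genes called, 2.96% that rose and 3.50% that fell. These shares also stand beside each diet count by pathway or marker list below. The 10 were Slc2a2 and Khk of sugar entry, Gpi1, Pfkl and Pkm of glycolysis, Fbp1 and Fbp2 of gluconeogenesis, and Idh3a, Sucla2 and Suclg1 of the TCA cycle. Slc2a1, Hk1 and Pcx were lower at an unadjusted p under 0.05, and DESeq2 called none of the 37 lower. The median log2 ratio of HFD over control was 0.24 over the 37 genes and 0.01 over all tested genes. Of the 37 genes, 24 were higher in HFD in both fractions, against 34.1% of all tested genes, and 4 were lower in both, against 30.3%. DESeq2 called 3 of the 10, Slc2a2, Khk and Pkm, and 1.75% of all tested genes. The p-values rest on 1 residual degree of freedom per gene, moderated across genes, and measure only how these 4 libraries vary, possibly for technical reasons; a fit without the fraction term called none of the 37. With 1 pool of mice per diet and fraction, diet cannot be told apart from other differences between the pools.

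**Figure D1:**
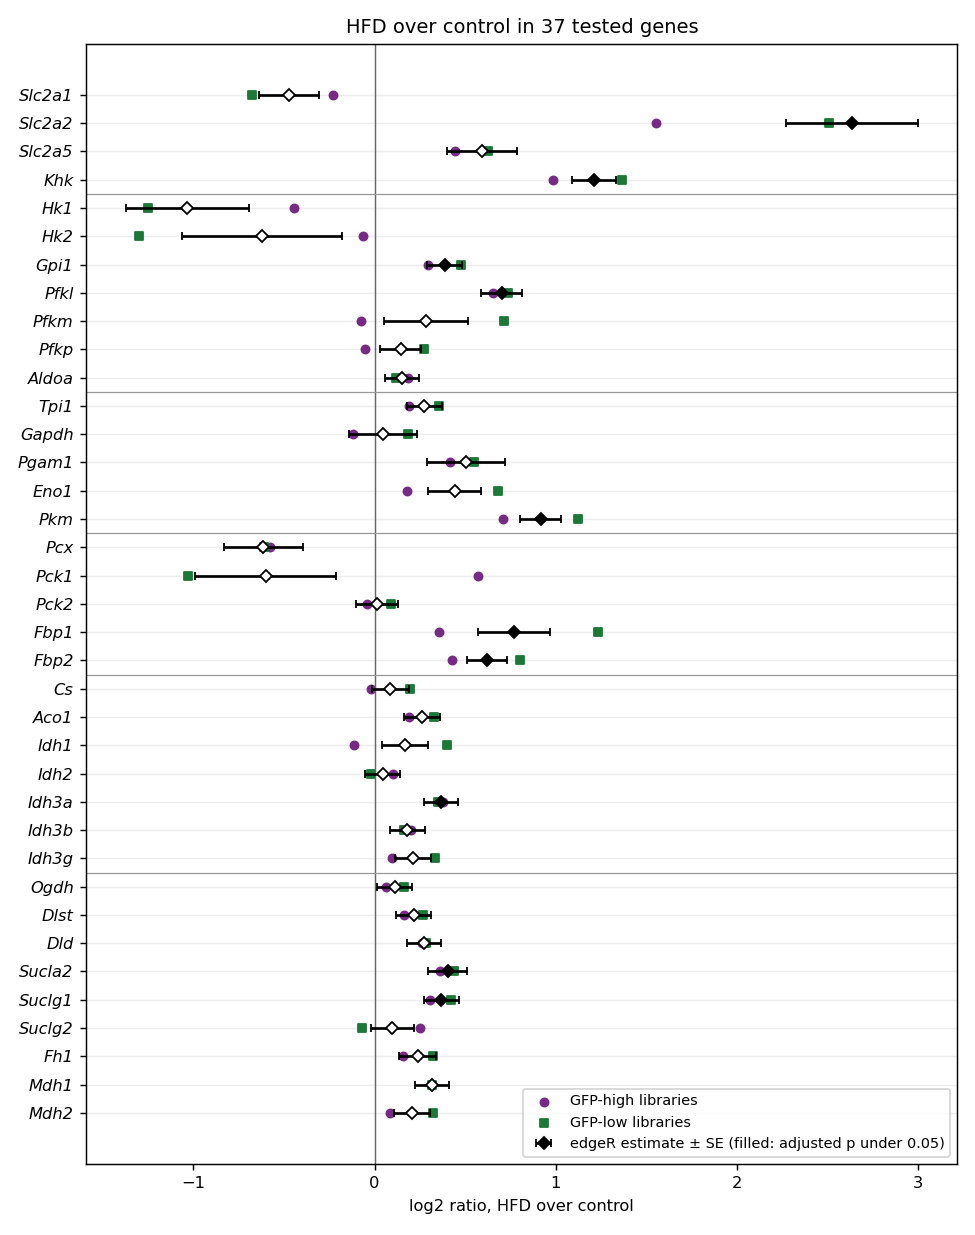
Log2 ratio of HFD over control for the 37 tested genes, ordered by pathway from sugar entry at the top to the TCA cycle at the bottom, with grey lines between pathways. Diamonds are the edgeR estimates ± SE over both fractions, circles the GFP-high libraries and squares the GFP-low libraries; all 10 called genes lie to the right of 0, with Slc2a2 at 2.64, and Hk2 shows circle and square far apart.

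Enterocyte markers moved with the same contrast. Of the 12 fixed markers 6 rose under HFD and none fell, with a median log2 ratio of 0.88, while 5 of 6 Paneth cell, 2 of 10 stem cell and 2 of 6 enteroendocrine markers fell and 0 of 7 goblet markers passed. Of the 7 goblet markers 6 were lower under HFD in both fractions. Their median log2 ratio was -1.18 in GFP-low and -0.105 in GFP-high cells, without a test. Whether a different share of enterocyte-fated or goblet cells in the sorted pools had a part in the diet ratios described here was not tested. In these bulk libraries, fewer cells of a type and less RNA per cell cannot be told apart.

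Between the fractions, 27 of the 37 tested genes were lower in GFP-high than in GFP-low cells and 1, Pck2, was higher (edgeR adjusted p under 0.05), against 47.6% of all tested genes called, 22.0% that were higher and 25.6% that were lower. Of the 27, Slc2a2, Hk1 and Pck1 entered the test through the GFP-low libraries alone, where they are high, so that they had to differ; a filter of 100 counts left them out and called 24 lower. GFP-high over GFP-low had a median log2 ratio of -0.57 over the 37 genes and 0.00 over all tested genes. Scaling by library totals raised the median of all genes by 0.19 and called 3633 higher and 1903 lower, in place of 2350 higher and 2740 lower, and the same scaling called 24 of the 28 genes, all but Gpi1, Pfkl, Idh3b and Fh1. Under HFD alone 2 genes (Hk2 and Pck2) were at least 2-fold higher in GFP-high, against 6.34% of all genes at 5 CPM, and 13 were at least 2-fold lower, against 9.05%. Under the control diet alone 1 gene (Pck2) was at least 2-fold higher, against 5.43%, and 9 were lower, against 9.30%. Of the lower genes under HFD, Slc2a2, Hk1, Pck1 and G6pc reached 5 CPM in GFP-low alone. Under the control diet Slc2a2, Slc2a5, Hk1 and Pck1 did so. These genes entered the count through the fraction where they are high, so their ratios are a description only. DESeq2 called 20 of the 37, and 22.3% of all tested genes. The single gene on the other side, Pck2, kept its direction under every scaling tried. The enterocyte and goblet marker sums given above were also lower in GFP-high, and their part in these differences was not tested.

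**Figure D2:**
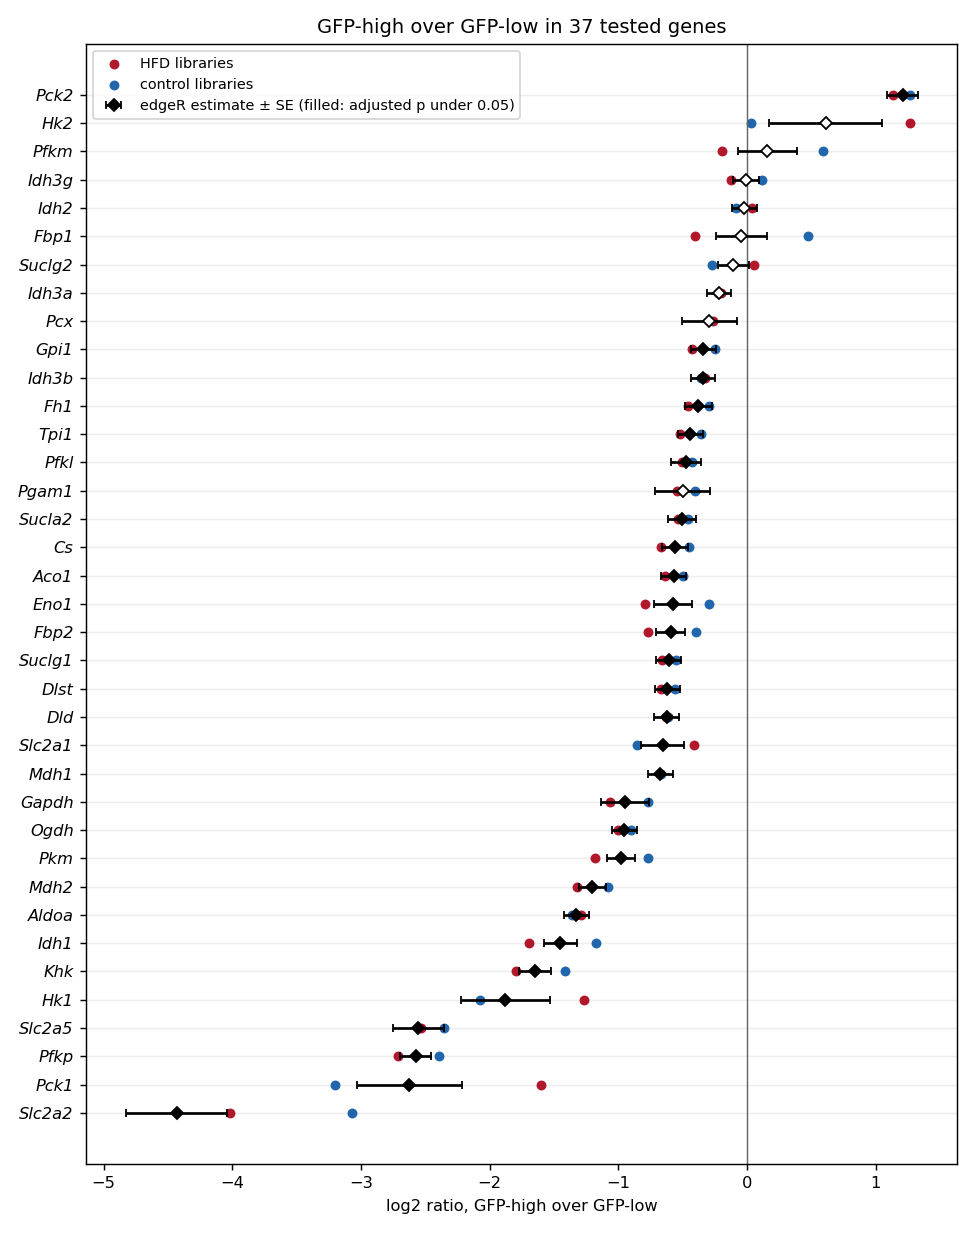
GFP-high over GFP-low, as a log2 ratio, for the 37 tested genes, ordered from the highest at the top to the lowest at the bottom. Diamonds are the edgeR estimates ± SE over both diets and circles the ratio within each diet; Pck2 is the only filled diamond to the right of 0, and Slc2a2 lies lowest at -4.43.

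Of the 4 genes of sugar entry 2 rose under HFD, and all 4 were called lower in GFP-high. Slc2a2 (GLUT2), the low-affinity glucose and fructose transporter of the enterocyte, lies at chr3:28697903-28731359 on the plus strand of GRCm38. It had 10 counts in HFD GFP-high and 158 in HFD GFP-low cells, against 1 count in control GFP-high and 23 in control GFP-low cells. Both HFD libraries lay above the control library of the same fraction, but the HFD GFP-high library lay below the control GFP-low library. The diet log2 ratio was 2.64 ± 0.37 SE (6.21-fold, edgeR adjusted p = 0.00024). Within GFP-low cells the log2 ratio was 2.51 (95% Poisson interval 1.98 to 3.32), and within GFP-high cells the interval was wide, 0.24 to 8.49, with 1 count in the control library. GFP-high over GFP-low, its log2 ratio of -4.43 was the lowest of the set. It is given as a description only, since Slc2a2 reached 20 counts in the GFP-low libraries alone.

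Khk, ketohexokinase, phosphorylates fructose once it is inside the cell (chr5:30921431-30931248, plus strand). It stood at 55.7 CPM in HFD GFP-high and 195 CPM in HFD GFP-low cells, against 27.9 CPM in control GFP-high and 75.2 CPM in control GFP-low cells. The HFD library was the higher of the pair in each fraction, and the interval of neither ratio reached 0. The diet log2 ratio was 1.21 ± 0.12 SE (2.31-fold, edgeR adjusted p = 9.98e-06), the smallest adjusted p among the 37 genes, and the ratios within the fractions were 0.99 in GFP-high (interval 0.73 to 1.28) and 1.36 in GFP-low cells (interval 1.19 to 1.56). Khk was 3.13-fold lower in GFP-high than in GFP-low cells (edgeR adjusted p = 2.83e-08).

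Slc2a5 (GLUT5), the fructose transporter of the brush border, had 44 counts in HFD GFP-high and 200 in HFD GFP-low cells, against 26 in control GFP-high and 115 in control GFP-low cells. Its diet log2 ratio of 0.59 ± 0.20 SE did not pass (edgeR adjusted p = 0.0844). It was 5.87-fold lower in GFP-high than in GFP-low cells (edgeR adjusted p = 5.41e-08). Slc2a1 (GLUT1), a glucose transporter of growing cells, was at 18.0 CPM in HFD GFP-high and 24.1 CPM in HFD GFP-low cells, against 21.2 CPM in control GFP-high and 38.7 CPM in control GFP-low cells. Its diet log2 ratio was -0.47 ± 0.17 SE, which did not pass (edgeR adjusted p = 0.107).

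Per length, the make-up of these transporters differed among the libraries. Slc2a1 held 70.0% of the summed RPKM (CPM per kilobase of merged exon) of the 3 transporters in HFD GFP-high and 28.2% in HFD GFP-low cells, against 81.0% in control GFP-high and 56.3% in control GFP-low cells. Slc2a2 held 3.55% in HFD GFP-high and 22.8% in HFD GFP-low cells, against 0.422% in control GFP-high and 4.62% in control GFP-low cells. Slc2a5 was the most abundant of the 3 per length in HFD GFP-low cells, at 11.9 RPKM, and Slc2a1 in the other libraries. These shares have no replicate.

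The promoters of Khk and Slc2a2 are shown because these genes had the largest diet ratios of the 37, and that of Fbp2 because it shares a motif with Khk. Pcx and Pfkm held the same motif, were not called for diet, and are not shown. Each spans 300 bases around a RefSeq start on GRCm38.p6, 5′ to 3′ on the gene's strand. The capitals mark CACGTG, the palindromic E-box that MYC-type factors are known to bind. It begins 71 bases before the start in Khk (chr5:30921309-30921608, plus strand) and 42 bases before it in Fbp2 (chr13:62858351-62858650, minus strand). The Slc2a2 promoter (chr3:28697653-28697952, plus strand) held none of the motifs searched.
Khk: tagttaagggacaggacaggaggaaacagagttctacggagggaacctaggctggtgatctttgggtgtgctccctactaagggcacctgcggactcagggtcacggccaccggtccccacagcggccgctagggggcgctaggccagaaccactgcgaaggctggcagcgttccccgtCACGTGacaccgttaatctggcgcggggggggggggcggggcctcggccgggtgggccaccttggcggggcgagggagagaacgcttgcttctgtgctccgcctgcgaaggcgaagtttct
Fbp2: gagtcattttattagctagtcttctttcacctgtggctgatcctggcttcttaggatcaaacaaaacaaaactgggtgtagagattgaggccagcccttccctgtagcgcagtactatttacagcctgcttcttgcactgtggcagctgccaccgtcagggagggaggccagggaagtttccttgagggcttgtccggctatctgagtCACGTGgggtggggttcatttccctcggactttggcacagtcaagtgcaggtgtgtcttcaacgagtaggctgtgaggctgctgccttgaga
Slc2a2: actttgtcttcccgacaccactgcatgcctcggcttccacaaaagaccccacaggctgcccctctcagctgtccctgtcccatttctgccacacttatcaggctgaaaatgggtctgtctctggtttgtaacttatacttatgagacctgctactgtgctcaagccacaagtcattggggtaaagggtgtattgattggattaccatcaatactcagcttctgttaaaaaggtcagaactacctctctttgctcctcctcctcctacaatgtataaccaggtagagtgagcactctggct

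With 1 promoter per gene (the first listed by RefSeq), 39 of the 40 genes had a promoter, all but Idh3a. CACGTG was in 4 of the 39 (Fbp2, Khk, Pcx and Pfkm), or 10.3%, against 7.24% of 27025 promoters of the table. ACGTG, the core of the hypoxia response element, which lies inside every CACGTG, was in 12 of the 39 (30.8%), against 19.7%. GGGCGG, the GC box, was in 26 of the 39 (66.7%), against 35.9%, and TATAAA in 2 (G6pc and Slc2a1), or 5.13%, against 14.2%. The DR1 repeat of nuclear receptor half-sites was in 0 of the 39 and in 12 of the 27025 promoters. Both strands were searched. A match is a description of these letters and not of binding.

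**Figure D3:**
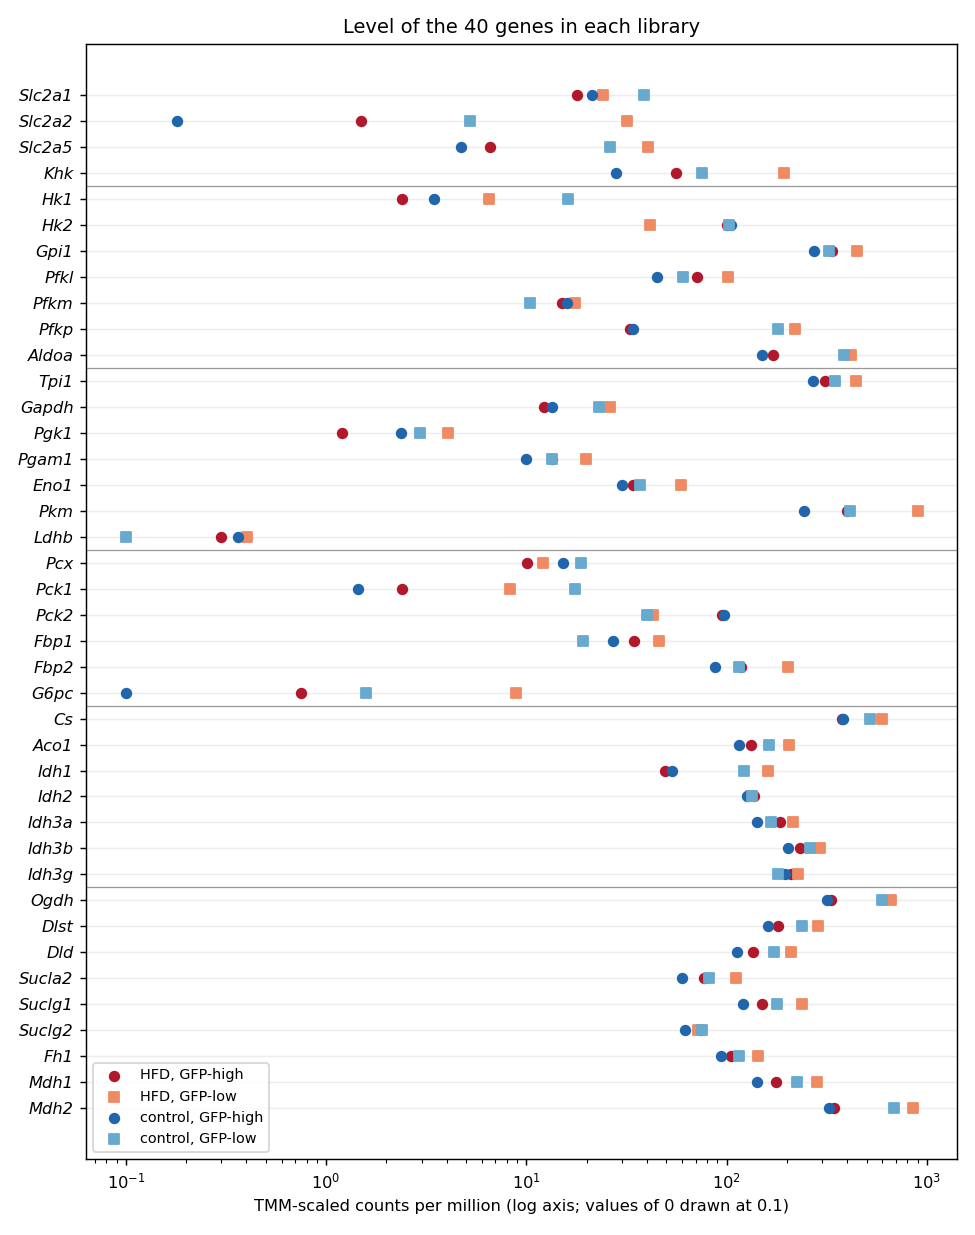
CPM of the 40 genes in each of the 4 libraries, on a log axis, with grey lines between pathways. Red and orange are HFD, dark and light blue are control, circles GFP-high and squares GFP-low; the squares lie to the right of the circles for Slc2a2, Slc2a5, Khk, Pfkp and Mdh2, and to the left for Pck2.

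In the first part of glycolysis, from hexokinase to aldolase, 2 of 7 genes rose under HFD, none fell, and 5 of 7 were lower in GFP-high. Pfkl, the liver-type phosphofructokinase of the committed step, was at 71.3 CPM in HFD GFP-high and 102 CPM in HFD GFP-low cells, against 45.1 CPM in control GFP-high and 60.7 CPM in control GFP-low cells. Both HFD libraries lay above both control libraries. For diet the log2 ratio was 0.70 ± 0.11 SE (1.63-fold, edgeR adjusted p = 0.000972; DESeq2 adjusted p = 0.102). Gpi1, glucose-6-phosphate isomerase, was at 335 CPM in HFD GFP-high and 450 CPM in HFD GFP-low cells, against 272 CPM in control GFP-high and 323 CPM in control GFP-low cells. Its diet log2 ratio was 0.39 ± 0.10 SE (1.31-fold, edgeR adjusted p = 0.0244) and lost the call with DESeq2's size factors.

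The phosphofructokinase isozymes differed in their pattern. Pfkp, the platelet type, was at 33.0 CPM in HFD GFP-high and 219 CPM in HFD GFP-low cells, against 34.2 CPM in control GFP-high and 182 CPM in control GFP-low cells. It was 5.96-fold lower in GFP-high (edgeR adjusted p = 1.07e-10, log2 -2.58 ± 0.12 SE), and its diet ratio did not pass (log2 0.15 ± 0.11 SE, edgeR adjusted p = 0.519). Exons of Pfkp overlap Pitrm1 on the opposite strand over 748 bases, and Pitrm1 ran the other way, with 863 counts in HFD GFP-high and 345 in HFD GFP-low cells, against 667 in control GFP-high and 343 in control GFP-low cells. Pfkm, the muscle type, was at 15.1 CPM in HFD GFP-high and 17.4 CPM in HFD GFP-low cells, against 15.9 CPM in control GFP-high and 10.4 CPM in control GFP-low cells. No test called it for diet or for fraction. Per length, Pfkp held 13.9% of the summed RPKM of the 3 isozymes in HFD GFP-high and 44.5% in HFD GFP-low cells, against 18.1% in control GFP-high and 52.6% in control GFP-low cells, and Pfkl took the largest share in the GFP-high libraries.

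At the hexokinase step the ratios differed between the fractions. Hk2, the inducible hexokinase of growing cells, was at 99.9 CPM in HFD GFP-high and 41.3 CPM in HFD GFP-low cells, against 105 CPM in control GFP-high and 102 CPM in control GFP-low cells. The HFD GFP-low library was the low one and the other 3 lay close together. The log2 ratio of HFD over control was -0.07 in GFP-high (interval -0.23 to 0.10) and -1.30 in GFP-low cells (interval -1.56 to -1.07), a difference of 1.23 that had no test, since no residual degree of freedom is left for it. GFP-high over GFP-low stood at log2 1.27 under HFD (interval 1.05 to 1.51) and 0.03 under the control diet (interval -0.15 to 0.21). The test over both fractions did not call Hk2 (log2 -0.62 ± 0.44 SE, edgeR adjusted p = 0.59).

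Hk1, the ubiquitous hexokinase, had 16 counts in HFD GFP-high and 32 in HFD GFP-low cells, against 19 in control GFP-high and 71 in control GFP-low cells. Its ratio was -0.44 in GFP-high (interval -1.58 to 0.52) and -1.25 in GFP-low cells (interval -1.96 to -0.69), and the diet test gave -1.03 ± 0.34 SE (edgeR adjusted p = 0.0833). Without the filter on low counts Hk1 was called lower under HFD. Hk2 held 90.1% to 98.3% of the summed RPKM of Hk1 and Hk2 in every library. Hkdc1, a related gene outside this pair, was at 5.81 RPKM in HFD GFP-high and 54.8 RPKM in HFD GFP-low cells. In control cells it was at 4.16 RPKM in GFP-high and 28.65 RPKM in GFP-low. It thus lay above Hk2 in the GFP-low libraries (6.92 RPKM under HFD and 17.2 RPKM under control) and below Hk2 in GFP-high. Aldoa, the ubiquitous aldolase, was at 170 CPM in HFD GFP-high and 418 CPM in HFD GFP-low cells, against 150 CPM in control GFP-high and 385 CPM in control GFP-low cells. It was 2.51-fold lower in GFP-high than in GFP-low cells (edgeR adjusted p = 2e-08) and did not pass for diet (log2 0.15 ± 0.10 SE, edgeR adjusted p = 0.404).

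**Figure D4:**
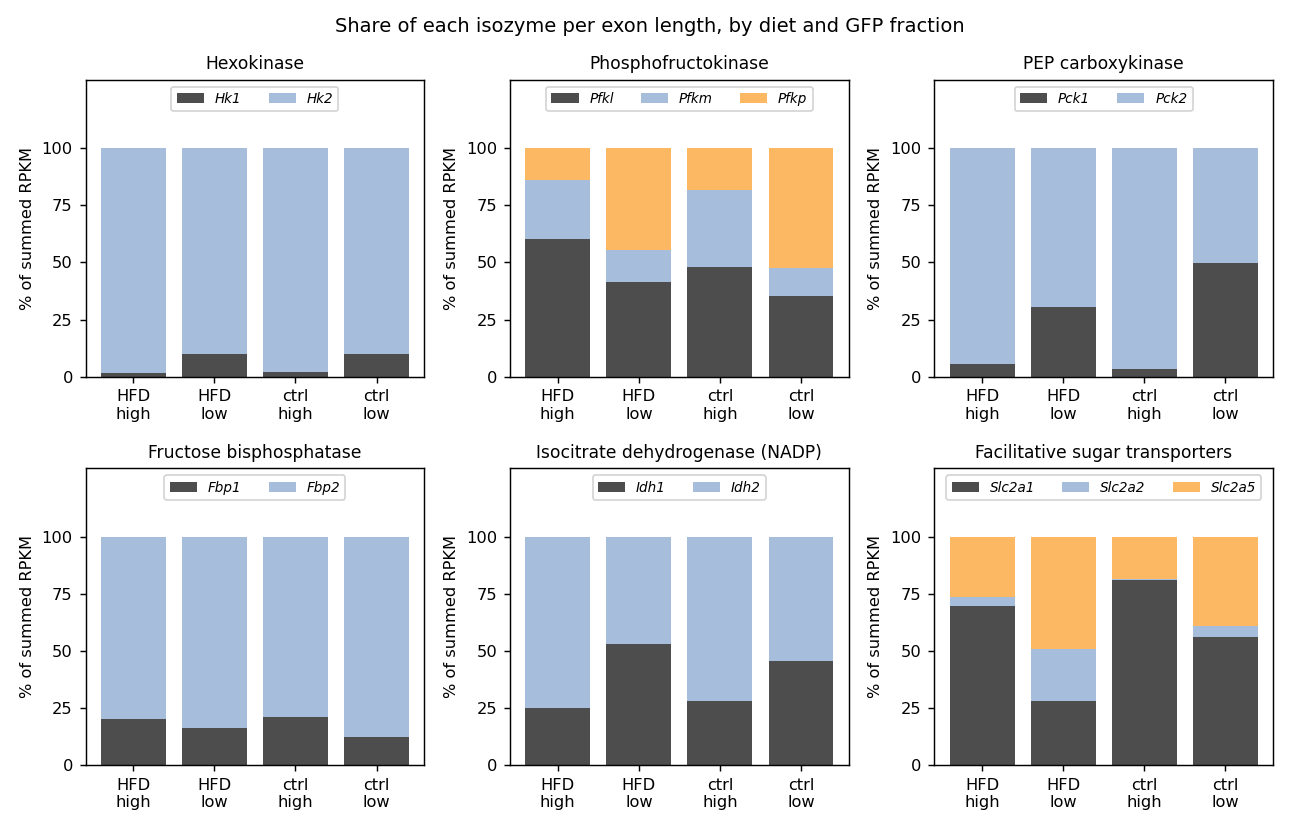
Share of each isozyme in the summed RPKM of its set, in percent, for 6 sets and the 4 libraries (HFD left of control). Each bar is 1 library with no error. Pfkp takes 44.5% and 52.6% of phosphofructokinase in the GFP-low libraries, and Hk2 takes at least 90.1% of Hk1 plus Hk2 everywhere. Hkdc1, which had more RPKM than Hk2 in the GFP-low libraries, is not in the hexokinase set.

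In the lower part of glycolysis, Pkm rose under HFD and 4 of 5 tested genes were lower in GFP-high. Pkm, pyruvate kinase of the M type, makes pyruvate and ATP in the last step (chr9:59656368-59679375, plus strand). It was at 398 CPM in HFD GFP-high and 901 CPM in HFD GFP-low cells, against 243 CPM in control GFP-high and 414 CPM in control GFP-low cells. The HFD GFP-low library stood well above the other 3. The diet log2 ratio was 0.92 ± 0.11 SE (1.89-fold, edgeR adjusted p = 0.000141; DESeq2 adjusted p = 8.28e-05), with 0.71 in GFP-high (interval 0.62 to 0.81) and 1.12 in GFP-low cells (interval 1.04 to 1.20). These counts are per gene and do not separate the M1 and M2 splice forms. Pkm was 1.97-fold lower in GFP-high (edgeR adjusted p = 7.18e-06).

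Tpi1, triose phosphate isomerase, was at 309 CPM in HFD GFP-high and 444 CPM in HFD GFP-low cells, against 270 CPM in control GFP-high and 347 CPM in control GFP-low cells, and did not pass for diet (log2 0.28 ± 0.10 SE, edgeR adjusted p = 0.108). Eno1, enolase, had a diet log2 ratio of 0.44 ± 0.15 SE (edgeR adjusted p = 0.0925; it passed without the filter on low counts), Pgam1, phosphoglycerate mutase, 0.50 ± 0.22 SE (edgeR adjusted p = 0.199), and Gapdh, the oxidising step of glycolysis, 0.05 ± 0.19 SE (edgeR adjusted p = 0.921). Gapdh had 82 counts in HFD GFP-high and 130 in HFD GFP-low cells, against 74 in control GFP-high and 102 in control GFP-low cells, and was 1.93-fold lower in GFP-high (edgeR adjusted p = 0.00058). Pgk1, phosphoglycerate kinase, and Ldhb, the heart-type lactate dehydrogenase subunit, were not tested: Pgk1 had 8 counts in HFD GFP-high and 20 in HFD GFP-low cells, against 13 in control GFP-high and 13 in control GFP-low cells, and Ldhb had 0 to 2 counts.

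Along the lower pathway, the levels per length of Gapdh, Pgk1, Pgam1 and Eno1 were below those of Tpi1 before them and Pkm after them. Gapdh was at 2.97 to 6.37 RPKM, Pgk1 at 0.534 to 1.80 RPKM, Pgam1 at 5.02 to 10 RPKM and Eno1 at 5.59 to 11.1 RPKM over the 4 libraries, against 98.2 to 161 RPKM for Tpi1 and 48.6 to 180 RPKM for Pkm. Gapdh, Eno1 and Pgk1 had the most sequence in common with other annotated genes. Of the 40-base windows of the longest coding transcript, 83.3% of Gapdh, 74.8% of Eno1, 68.1% of Pgk1 and 41.8% of Pgam1 also occurred letter for letter in transcripts of other genes, mostly processed pseudogenes (265 of 275 other genes for Gapdh), while 21 of the 40 genes shared none. Pkm had 42.2%, Ldhb 34.3%, Gpi1 30.8%, Suclg2 24.7%, Aldoa 22.1%, Pfkp 17.3% and Tpi1 11.9%. The sources used here do not say how reads that fit several places were counted, so the levels and ratios of these genes are uncertain. Of the other genes that share windows with Gapdh, 118 were in the tables and together held 281 counts in HFD GFP-high and 210 in HFD GFP-low cells, against 273 in control GFP-high and 149 in control GFP-low cells, which is more than Gapdh itself in every library. Annotated exons also overlap another gene on the same strand over 767 bases in Pkm (Gm49759) and 341 bases in Pfkm (Gm26513), and on the opposite strand over 741 bases in Gpi1 (Gm26762), 157 bases in Hk1 (Hk1os) and 105 bases in Slc2a1 (Gm12868).

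For Gapdh and Eno1, which had the highest shared share, the 40-base coding stretch found in the most other genes is given to show how complete the overlap is. That of Gapdh (coding bases 407 to 446 of Gapdh-203, chromosome 6) is in 104 other genes, and that of Eno1 (coding bases 463 to 502 of Eno1-202, chromosome 4) in 6. They are read from the GENCODE M21 transcripts on GRCm38, 5′ to 3′.
Gapdh: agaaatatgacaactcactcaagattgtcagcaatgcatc
Eno1: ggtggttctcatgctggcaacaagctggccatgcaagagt

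**Figure D5:**
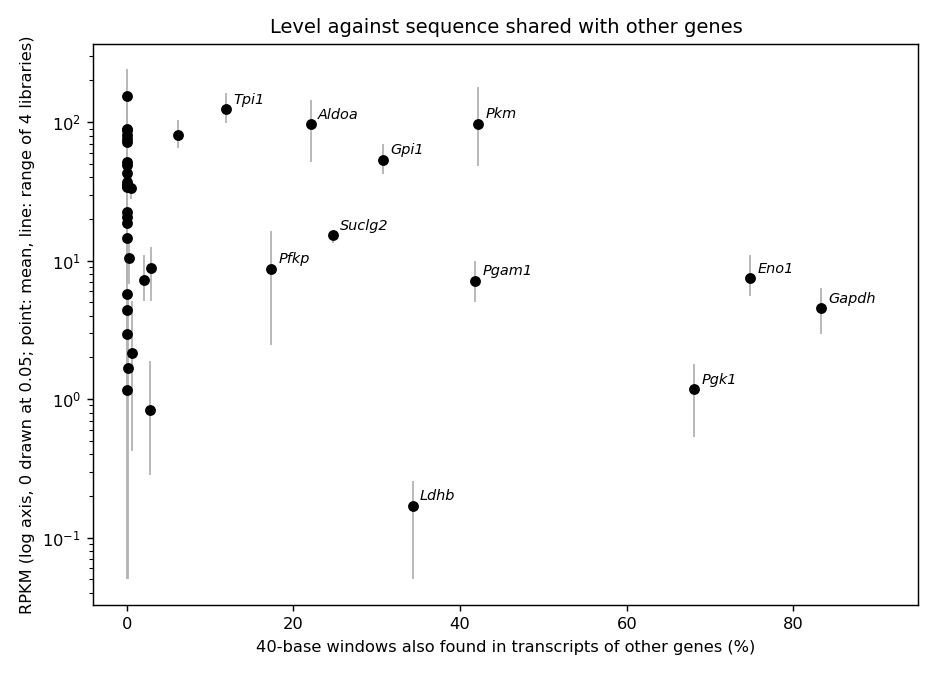
Level per exon length (RPKM, log axis, point the mean and line the range of the 4 libraries) against the percentage of 40-base windows that also occur in other annotated genes, for the 40 genes. Gapdh, Eno1 and Pgk1 lie at 68.1% or more and at 11.1 RPKM or less, while Tpi1, at 11.9%, reaches 161 RPKM. Pkm, at 42.2%, reaches 180 RPKM, and Ldhb, at 34.3%, stays at 0.258 RPKM or less.

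Of the 11 genes with more than 10% of windows shared, 9 were tested, and 2 rose under HFD (Gpi1 and Pkm). Of the other 29 genes 28 were tested, and 8 rose and none fell. The median diet log2 ratio was 0.28 in the first set and 0.23 in the second, and the median fraction log2 ratio -0.57 and -0.58.

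Of the 5 tested genes of gluconeogenesis 2 rose under HFD, both bisphosphatases, and in GFP-high 2 were lower and 1 was higher. Fbp1 and Fbp2, which remove a phosphate from fructose 1,6-bisphosphate, are neighbours on chromosome 13 with 6330 bases between them, and they shared no 40-base window with any other gene. Fbp1, the liver type, was at 34.6 CPM in HFD GFP-high and 45.9 CPM in HFD GFP-low cells, against 27.0 CPM in control GFP-high and 19.3 CPM in control GFP-low cells. Both HFD libraries lay above both control libraries. The diet log2 ratio was 0.77 ± 0.20 SE (1.70-fold, edgeR adjusted p = 0.0483; DESeq2 adjusted p = 0.39), with 0.35 in GFP-high (interval 0.06 to 0.67) and 1.23 in GFP-low cells (interval 0.89 to 1.63).

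Fbp2, known as the muscle type, was at 118 CPM in HFD GFP-high and 202 CPM in HFD GFP-low cells, against 87.6 CPM in control GFP-high and 115 CPM in control GFP-low cells. The HFD GFP-high library was close to the control GFP-low library. The diet log2 ratio was 0.62 ± 0.11 SE (1.54-fold, edgeR adjusted p = 0.00241; DESeq2 adjusted p = 0.123). Per length Fbp2 held 79.0% to 87.4% of the summed RPKM of both genes in every library.

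G6pc, glucose-6-phosphatase, frees glucose for release and is best known from liver and kidney (chr11:101367561-101377903, plus strand). It had 5 counts in HFD GFP-high and 44 in HFD GFP-low cells, against 0 counts in control GFP-high and 7 in control GFP-low cells, and did not reach the filter for the test. Within GFP-low cells the log2 ratio was 2.17 (interval 1.33 to 3.89), and within GFP-high cells, with 0 counts in the control library, the interval had no upper end and began at -0.40, so a difference was not detectable at this depth. Without the filter the estimate was log2 2.63 ± 0.64 SE (edgeR adjusted p = 0.00141) for diet and -3.73 ± 0.65 SE (edgeR adjusted p = 1.32e-07) for GFP-high over GFP-low. Its promoter (chr11:101367466-101367765, plus strand, GRCm38.p6) is given because only G6pc and Slc2a1 of the 39 held TATAAA, shown in capitals, which begins 29 bases before the start.
G6pc: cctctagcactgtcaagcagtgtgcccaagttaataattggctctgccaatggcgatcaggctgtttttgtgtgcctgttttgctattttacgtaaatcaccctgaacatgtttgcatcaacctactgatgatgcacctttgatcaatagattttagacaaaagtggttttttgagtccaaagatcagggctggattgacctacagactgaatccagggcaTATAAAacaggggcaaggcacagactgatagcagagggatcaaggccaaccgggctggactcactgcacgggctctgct

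Pck1 and Pck2 make phosphoenolpyruvate in the cytosol and in mitochondria. Pck2 was at 94.5 CPM in HFD GFP-high and 42.7 CPM in HFD GFP-low cells, against 97.4 CPM in control GFP-high and 40.1 CPM in control GFP-low cells. The GFP-high libraries were the high ones under both diets, and over both diets Pck2 was higher there by 2.31-fold (edgeR adjusted p = 5.12e-07, log2 1.21 ± 0.12 SE). For diet its log2 ratio was 0.01 ± 0.12 SE (edgeR adjusted p = 0.973).

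Pck1 had 16 counts in HFD GFP-high and 41 in HFD GFP-low cells, against 8 in control GFP-high and 77 in control GFP-low cells. Between the fractions its log2 ratio, -2.62, is a description only, since Pck1 too reached 20 counts in the GFP-low libraries alone. Its diet ratio was 0.57 in GFP-high (interval -0.58 to 2.16) and -1.03 in GFP-low cells (interval -1.66 to -0.51), and the diet test did not call it (edgeR adjusted p = 0.426). Pcx, pyruvate carboxylase, which makes oxaloacetate, had an estimate of -0.61 ± 0.22 SE for diet on the log2 scale (edgeR adjusted p = 0.108) and nearly equal ratios in both fractions, -0.58 in GFP-high and -0.61 in GFP-low cells.

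All 16 TCA cycle genes were tested, and 3 rose under HFD and none fell. Of the 16, 12 were higher in HFD in both fractions, and the diet log2 ratios ran from 0.05 for Idh2 to 0.40 for Sucla2. With fold changes of 1.29 to 1.32, the calls of Sucla2, Suclg1 and Idh3a were lost with DESeq2's size factors (which called 5 of the 10), with TMM factors taken from the tested genes alone (6 of the 10) and with DESeq2's own test.

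Sucla2, the ADP-forming subunit of succinyl-CoA ligase, was at 76.7 CPM in HFD GFP-high and 111 CPM in HFD GFP-low cells, against 59.6 CPM in control GFP-high and 82.0 CPM in control GFP-low cells (log2 0.40 ± 0.11 SE, edgeR adjusted p = 0.0371). Suclg1, the alpha subunit of the same enzyme, was at 150 CPM in HFD GFP-high and 238 CPM in HFD GFP-low cells, against 121 CPM in control GFP-high and 178 CPM in control GFP-low cells (log2 0.37 ± 0.10 SE, edgeR adjusted p = 0.0301). For both genes each fraction's HFD library was the higher of its pair. Suclg2, the GDP-forming subunit, was at 74.3 CPM in HFD GFP-high and 71.6 CPM in HFD GFP-low cells, against 62.3 CPM in control GFP-high and 75.2 CPM in control GFP-low cells, and did not pass for diet (log2 0.10 ± 0.12 SE, edgeR adjusted p = 0.708).

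Idh3a, the catalytic subunit of the NAD-linked isocitrate dehydrogenase, was at 185 CPM in HFD GFP-high and 213 CPM in HFD GFP-low cells, against 143 CPM in control GFP-high and 167 CPM in control GFP-low cells (log2 0.37 ± 0.10 SE, edgeR adjusted p = 0.0286). Both HFD libraries lay above both control libraries. The partner subunits did not pass, with 0.18 ± 0.09 SE for Idh3b (edgeR adjusted p = 0.298) and 0.21 ± 0.10 SE for Idh3g (edgeR adjusted p = 0.237). Citrate synthase (Cs), which starts the cycle, had a diet log2 ratio of 0.09 ± 0.10 SE (edgeR adjusted p = 0.672). The other cycle genes that did not pass (Aco1, Idh1, Ogdh, Dlst, Dld, Fh1 and Mdh2) had diet log2 ratios of 0.11 for Ogdh to 0.27 for Dld, with edgeR adjusted p of 0.107 to 0.568. Mdh1, the cytosolic malate dehydrogenase, was the nearest to the threshold among those that missed it (log2 0.32 ± 0.10 SE, edgeR adjusted p = 0.0587). It passed without the filter on low counts and with a filter of 100 counts.

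Between the fractions, 12 of the 16 TCA cycle genes were lower in GFP-high and none was higher, against 25.6% and 22.0% of all tested genes. Their median log2 ratio was -0.56. The largest differences were in Idh1, the cytosolic NADP-linked isocitrate dehydrogenase (2.73-fold lower, edgeR adjusted p = 9.07e-07), Mdh2, the mitochondrial malate dehydrogenase (2.30-fold lower, edgeR adjusted p = 1.16e-07) and Ogdh, the first subunit of the oxoglutarate dehydrogenase complex (1.94-fold lower, edgeR adjusted p = 9.07e-07). Mdh2 was at 343 CPM in HFD GFP-high and 856 CPM in HFD GFP-low cells, against 323 CPM in control GFP-high and 684 CPM in control GFP-low cells. Idh1 was at 49.4 CPM in HFD GFP-high and 161 CPM in HFD GFP-low cells, against 53.6 CPM in control GFP-high and 122 CPM in control GFP-low cells. Ogdh was at 331 CPM in HFD GFP-high and 665 CPM in HFD GFP-low cells, against 318 CPM in control GFP-high and 594 CPM in control GFP-low cells. In all 3 genes both GFP-low libraries lay above both GFP-high libraries. The other subunits of the oxoglutarate dehydrogenase complex, Dlst and Dld, were lower by 1.53-fold and 1.54-fold (edgeR adjusted p = 6.56e-05 and 6.4e-05), and Aco1, the cytosolic aconitase, by 1.48-fold (edgeR adjusted p = 0.000172). Idh2, the mitochondrial NADP-linked form, stood at 137 CPM in HFD GFP-high and 133 CPM in HFD GFP-low cells, against 127 CPM in control GFP-high and 135 CPM in control GFP-low cells, with no call (edgeR adjusted p = 0.885, log2 -0.02 ± 0.10 SE). Per length Idh2 held 74.7% of the summed RPKM of Idh1 and Idh2 in HFD GFP-high and 46.9% in HFD GFP-low cells, against 71.7% in control GFP-high and 54.2% in control GFP-low cells. The merged exons span 2588 bases for Idh2 and 2771 for Idh1, and the longest coding transcripts 1745 and 2302 bases. Which of the 2 genes is higher in GFP-low cells thus depends on the length used. Fh1, fumarase, was 1.30-fold lower in GFP-high (edgeR adjusted p = 0.00647).

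Within each fraction HFD and control were 1 library each and had no test. In GFP-high cells 0 of the 34 genes whose higher library reached 5 CPM were at least 2-fold higher under HFD, against 0.810% of all such genes, and 0 were at least 2-fold lower, against 1.51%. In GFP-low cells 5 of 38 genes were at least 2-fold higher (Slc2a2, Khk, Pkm, Fbp1 and G6pc), against 1.58%, and 3 were lower (Hk1, Hk2 and Pck1), against 2.63%. G6pc reached 5 CPM in the HFD library alone, where it is high, so its ratio is a description only. The median log2 ratio of the 37 tested genes was 0.19 in GFP-high cells, against 0.02 over all tested genes, and 0.32 in GFP-low cells, against 0.00. The difference between the fractions in these counts was not tested.

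Among 85 other genes of carbohydrate metabolism, listed by pathway, 70 were tested. Of these, 9 rose under HFD and 2 fell, against 2.96% of all tested genes that rose and 3.50% that fell. The same shares stand beside the count of each list below. Of the other glycolysis genes 2 of 15 rose, among them Hkdc1, a hexokinase-like protein (log2 0.77 ± 0.12 SE, edgeR adjusted p = 0.00111). Of the transport and fructose genes 2 of 9 rose and 1 fell: Tkfc, the triokinase of fructose use (log2 0.76 ± 0.12 SE, edgeR adjusted p = 0.00169), and Slc37a4, the glucose-6-phosphate carrier (0.59 ± 0.15 SE, edgeR adjusted p = 0.0284), against Slc37a1, a related carrier (-0.45 ± 0.11 SE, edgeR adjusted p = 0.0234). Khk and Tkfc, kinases of the route from fructose to the trioses, both rose, and Slc2a5 did not pass.

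Of the other TCA cycle and anaplerosis genes 1 of 16 rose, Me1, the cytosolic malic enzyme (log2 2.20 ± 0.21 SE, edgeR adjusted p = 6.26e-06). In the pentose phosphate list 1 of 8 rose, Tkt, transketolase (0.36 ± 0.10 SE, edgeR adjusted p = 0.0494), and in the glycogen and galactose list 1 of 10, Galk1, galactokinase (0.66 ± 0.13 SE, edgeR adjusted p = 0.00572). Of 12 regulators 2 rose, Ppargc1a, a coactivator of mitochondrial genes (0.98 ± 0.18 SE, edgeR adjusted p = 0.00492), and Mlxipl, the carbohydrate-response factor ChREBP (0.53 ± 0.13 SE, edgeR adjusted p = 0.0296), and Myc, a growth factor-induced transcription factor, fell (-0.74 ± 0.10 SE, edgeR adjusted p = 0.000157). Ldha, the main lactate dehydrogenase subunit of proliferating cells, was just over the threshold (0.34 ± 0.10 SE, edgeR adjusted p = 0.0544).

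Between the fractions 40 of these 70 genes were lower in GFP-high and 7 were higher, against 25.6% and 22.0% of all tested genes. Among the most extreme called genes of the lists were Hkdc1 (log2 -3.04) and Pklr, the liver-type pyruvate kinase (-1.38), on the low side of glycolysis, with Adpgk, the ADP-dependent glucokinase (0.45), and Pgm1, a phosphoglucomutase (-0.40), at the other end. Around the TCA cycle Me1 (-2.53) and Gpd1 (-1.26) were lowest, and Ogdhl (2.05) and Glud1 (-0.24) highest. Ogdhl, counted among the 7 higher genes, reached the count limit for testing in the GFP-high libraries alone, so that it had to differ. Its ratio is a description only, and DESeq2 did not call it (DESeq2 adjusted p = 0.0647). Among transport and fructose genes Slc2a10 (-2.51) and Slc2a9 (-1.63) were lowest, and Sord, sorbitol dehydrogenase (0.72), and Slc16a1, a lactate carrier (-0.31), highest. In the pentose phosphate list Pgd (-1.10) and Rpe (-0.46) were lowest and G6pdx (-0.39) and H6pd (-0.41) highest. In the glycogen and galactose list Galk1 (0.46) and Galm (-0.38) were highest, and among regulators Arrdc4 (-1.27) and Ppargc1a (-1.21) were lowest and Myc (1.36) and Mlxip (0.74) highest.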

How the data were processed

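The files hold raw gene counts, 1 table per library, as the authors deposited them: whole reads per Ensembl gene, not normalized. Per the labels' protocols the libraries were strand-specific (dUTP) and poly(A)-selected; per the submitters' processing notes the tools included cutadapt, TopHat 1.4.1 and HTSeq with GRCm38 (mm10). The sources used here do not say which strand setting was counted or how reads that fit several places were handled. Totals ran from 4677389 to 6207080 counts per library, and 1779 of 38124 identifiers had no symbol in GENCODE M21.

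A gene was tested if 2 or more libraries held 20 or more counts of it. The test was edgeR 4.0.16's quasi-likelihood F-test (R 4.3.3), with robust estimation, TMM factors from all genes, and an additive model of diet and fraction, with Benjamini-Hochberg adjustment over all 10694 genes at 0.05. The SE is the log2 ratio divided by the root of F. Ratios within a fraction or diet compare 1 library with 1 library: log2 of CPM plus 0.5, with exact 95% Poisson intervals without the 0.5, and were counted past 2-fold at 5 CPM or more. RPKM divides CPM by merged exon length. For some genes this is far longer than the longest coding transcript (13401 against 4145 bases for Pfkp), so shares between isozymes depend on the length used. Scripts were tested on simulated data, where 87% of 2-fold changes were recovered for diet and 91% for fraction. Of the calls there 1.06% were false for diet and 8.17% for fraction, the latter above the 0.05 threshold. Promoters are RefSeq's, GRCm38.p6. Alternatives were DESeq2 1.42.0, other scalings and filters, and models with 1 term. All 40 genes are described, with values in every library for those called for diet, past 2-fold, or at the ends of the fraction ratios; of other pathway genes those called for diet and the 2 highest and 2 lowest called fraction ratios of each list are named, except a few genes that are not reported here. The genes and lists were chosen with earlier results of these data known.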

Additional observations from a re-analysis of the deposited data

How the results depend on the processing

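The number of the 37 genes that rose under HFD, 10 here, was 5 with DESeq2's size factors, 3 with DESeq2's own test, 6 with TMM factors from the tested genes alone (chosen after seeing the data) and 0 with the fraction term left out, a model that called 0 of all 10694 genes and 149 at an unadjusted p under 0.05. Library totals kept all 10. Without the filter all 10 were kept and Eno1, G6pc and Mdh1 were added, 13 in all, and a filter of 100 counts added Mdh1 and left Slc2a2 untested. Khk and Pkm kept their calls in each of these settings but the model without the fraction term. The number that fell, 0 here, was 1 (Hk1) without the filter. The number lower in GFP-high, 27 here, was 15 with the diet term left out. Scaling by library totals gave a median fraction log2 ratio of -0.38 in place of -0.57 and 1 gene at least 2-fold higher under HFD in GFP-high in place of 0. Of the uncalled ratios, that of Pck2 for diet changed sign without the fraction term (-0.003), and for fraction those of Fbp1 (0.154), Idh2 (0.172), Idh3g (0.186) and Suclg2 (0.088) with library totals, Idh3g (0.002) with DESeq2's size factors and Fbp1 (0.022) with DESeq2's own test; the cause was not tested. Leaving out 1 library left no residual degree of freedom and gave values only: the median log2 ratio was 0.19 to 0.32 for diet and -0.64 to -0.46 for fraction. No paired analysis was possible because each group has 1 library and no replicate numbers to pair; the additive model already sets diet within fraction and fraction within diet. Depth limits the ratios where counts are 0 to 20, as for Slc2a2, G6pc, Hk1 and Pck1 in GFP-high cells and for Ldhb and Pgk1 in every library.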
